A study of Mus musculus with 2 samples.

Results

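Toll-like receptors sense conserved molecules of microbes. In all, 10 genes were followed here through single cells of mouse lung: Tlr1, Tlr2, Tlr3, Tlr4, Tlr7, Tlr8, Tlr9, Tlr11 and Tlr13, each of which encodes a receptor, and Cd14, which encodes a co-receptor that hands lipopolysaccharide to TLR4 and is not itself a Toll-like receptor. These are 10 of the 31053 gene rows of the count matrices, taken by symbol and by no cutoff on their values. The list was chosen with earlier results of these data known. The samples were lung cells of female C57BL/6J mice of matched age, with the lungs of 8 mice pooled for each of 3 treatments. Asthma mice were sensitised by intraperitoneal ovalbumin (OVA) with the adjuvant Alum and then challenged with OVA through the nose. Tolerance mice inhaled OVA before they went through the asthma protocol. Control mice received intraperitoneal Alum without OVA, followed by intranasal NaCl. Dendritic cells (DCs; high for MHC-II and CD11c, within a gate negative for MerTK, CD64 and Ly6C) and alveolar macrophages were sorted, tagged with a hashtag antibody for each treatment, mixed and run on 2 droplet lanes, which gives 1 pool per treatment and lanes that repeat the same pools.

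The family is usually divided by where the receptors work. TLR1, TLR2, TLR4, TLR5 and TLR6 sit at the cell surface, where TLR2 pairs with TLR1 or TLR6 to bind bacterial lipopeptides and TLR4, with its partner MD-2, binds lipopolysaccharide. TLR3, TLR7, TLR8, TLR9 and TLR13 work inside endosomes, where TLR3 binds double-stranded RNA, TLR7 and TLR8 bind products of single-stranded RNA, TLR9 binds unmethylated CpG DNA and TLR13, which mice have and humans lack, binds a stretch of bacterial ribosomal RNA. TLR11 is also endosomal and senses profilin of protozoan parasites. Alveolar macrophages live on the air side of the lung and interstitial macrophages in its tissue, while conventional DCs of the cDC1 and cDC2 kinds carry antigen to lymph nodes, which they reach after they switch on Ccr7.

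In the GRCm38 (mm10) annotation the genes are spread over the genome. Tlr1 lies on chromosome 5 from 64924679 to 64933563, beside its near copy Tlr6, so reads shared by this pair may be missing or misplaced and values of both are uncertain. Tlr8 (chromosome X, 167242696 to 167264329) lies next to Tlr7 (chromosome X, 167304929 to 167330558), and Tlr13 is elsewhere on chromosome X (106143204 to 106160493). Tlr2 is on chromosome 3 (83836272 to 83841767), Tlr4 on chromosome 4 (66827584 to 66930284), Tlr9 on chromosome 9 (106222598 to 106226883), Tlr3 on chromosome 8 (45395665 to 45411080) and Tlr11 on chromosome 14 (50357914 to 50363663).

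Tlr3 and Tlr11 were the members most concentrated in cDC1-like cells, and Tlr3 was also higher in macrophages with interferon-induced transcripts, so the promoters of both are shown. The sequences run from 250 bases before to 50 bases after the RefSeq start (GRCm38.p6), and capitals mark a match to GAAANNGAA, the first 9 letters of the core of the interferon-stimulated response element, searched on both strands. Promoters were found for 7 of the 10 members. Tlr3 is read from the minus strand of chr8:45410331-45410630, and Tlr11 from the plus strand of chr14:50357664-50357963. By the gene positions given above, the Tlr3 window lies inside the gene, whose start on the minus strand is at 45411080.
Tlr3: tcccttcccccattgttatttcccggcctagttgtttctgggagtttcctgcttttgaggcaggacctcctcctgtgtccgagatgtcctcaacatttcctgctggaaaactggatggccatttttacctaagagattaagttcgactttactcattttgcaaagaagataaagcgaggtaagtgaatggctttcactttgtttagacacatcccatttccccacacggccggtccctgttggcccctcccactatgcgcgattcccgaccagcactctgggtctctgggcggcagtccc
Tlr11: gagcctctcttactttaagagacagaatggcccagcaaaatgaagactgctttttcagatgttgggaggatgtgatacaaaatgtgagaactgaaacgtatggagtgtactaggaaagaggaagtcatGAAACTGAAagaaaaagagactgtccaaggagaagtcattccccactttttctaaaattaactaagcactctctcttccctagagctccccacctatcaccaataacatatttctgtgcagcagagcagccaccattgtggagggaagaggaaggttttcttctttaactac
The window of Tlr3 held 0 exact matches, and bases outside it, among them that start of the gene, were not searched. The window of Tlr11 held 1, on the plus strand at position -122 from the start. Tlr8 also held 1, on the other strand at position -67, and the remaining members with a promoter (Tlr1, Tlr2, Tlr9 and Tlr13) held 0. Of all 32851 promoters of the table, 2812 (8.56%) held the motif, and a match is a run of letters, not evidence of binding. The full core has a further A, which followed the match of Tlr11 but not that of Tlr8 and which followed a match in 1131 promoters (3.44%). The shorter form was taken after the result of the full core had been seen.

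After removal of poor cells and doublets, 9863 cells remained from 10901 barcodes, with 7667078 to 10879631 UMIs (unique molecular identifiers, each standing for 1 captured RNA molecule) per pool and lane and medians of 4488 to 6600 UMIs per cell. Of the hashtag UMIs, 98.47% to 99.2% came from the antibody of the labelled treatment, and 0 barcodes were shared between the lanes. Cells joined a class when they held at least 3 or 4 of its marker genes and reached the number for no other class, and because the classes were rebuilt from markers they are called AM-like (alveolar macrophage), IM-like (interstitial macrophage) and so on. No Tlr gene was a marker. The genes were followed in 533 B cell-like, 281 Ccr7+ DC-like, 294 cDC1-like, 734 cDC2-like, 322 nonclassical monocyte-like, 886 IM-like and 4428 AM-like cells, and 1563 cells (15.85%) reached no class. These were 20.45% of the asthma, 21.04% of the tolerance and 6.04% of the control pool. A further 315 cells (3.19%) reached the number for several classes and so joined none. The smallest class in a pool used for a test was the 30 Ccr7+ DC-like cells of the control pool. Macrophages, monocytes, B and T cells outside the DC gate were thus present, and the number of cells of a class depends on the sort. Median UMIs per cell ran from 1857 in B cell-like to 7327 in cDC2-like cells, so levels are written as CPM, in which each gene's count is divided by the UMI total of its class and brought to the usual base. Each UMI count carries counting error, given as a 95% interval (exact Poisson for UMIs, exact Clopper-Pearson for shares), which covers that error only. Means ± SD are over the 3 pools (n = 3), and since each pool is another treatment, the SD also spans the treatments. Levels of different genes are not set against each other. Orders of level cover the 9 classes with at least 20 cells in every pool (those above with endothelial-like and T cell-like cells), and the smaller classes, among them neutrophil-like, classical monocyte-like and plasmacytoid DC-like cells, stand outside them.

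Among the surface receptors, Tlr2 was the most widely detected member, with 17226 UMIs in 5432 cells (55.07% of all cells), and its level was highest in AM-like cells, which held 79.61% of its UMIs. Of the DC, monocyte, macrophage and B cell classes, B cell-like cells had the lowest mean, at 9.51, 2.66 and 11.4 CPM in the asthma, tolerance and control pools. Ccr7+ DC-like cells had 8.48, 28.1 and 38.2 CPM, cDC1-like cells 26.7, 8.56 and 55.0 CPM and cDC2-like cells 29.3, 29.5 and 106 CPM. In all 3 DC classes the control pool was the highest. Nonclassical monocyte-like cells had 186, 186 and 196 CPM, IM-like cells 120, 136 and 353 CPM and AM-like cells 465, 473 and 655 CPM. The 3 pools of AM-like cells lay above every pool of the other 8 classes, whereas nonclassical monocyte-like (189 ± 5.73 CPM) and IM-like cells (203 ± 130 CPM) overlapped.

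Tlr1, the partner of TLR2 for triacylated lipopeptides, had another order, with its highest means in IM-like, B cell-like and nonclassical monocyte-like cells and next to none in AM-like cells. It gave 426 UMIs in 370 cells. B cell-like cells had 30.1, 16.0 and 15.2 CPM in the asthma, tolerance and control pools, cDC2-like cells 11.9, 12.8 and 3.85 CPM and nonclassical monocyte-like cells 6.97, 14.0 and 30.1 CPM. IM-like cells held 45, 132 and 2 UMIs (22.6, 35.7 and 8.11 CPM), and the 24338333 UMIs of AM-like cells included 1, 0 and 1. The ratio of the IM-like to the AM-like level was 367.3, with an interval of 100.2 to 3056. The means of B cell-like (20.4 ± 8.40 CPM), nonclassical monocyte-like (17.0 ± 11.9 CPM) and IM-like cells (22.2 ± 13.8 CPM) differed by less than their spread. Tlr6, the other partner of TLR2, was counted in both macrophage classes, at 5.75 ± 2.06 CPM in IM-like and 5.01 ± 0.617 CPM in AM-like cells.

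Tlr4, the lipopolysaccharide receptor, was again highest in AM-like cells, which held 75.48% of its 2292 UMIs, and was low in DCs. Ccr7+ DC-like cells had 0.942, 0 and 0 CPM in the asthma, tolerance and control pools, cDC1-like cells 1.84, 2.45 and 6.60 CPM and cDC2-like cells 4.09, 5.90 and 7.69 CPM. Nonclassical monocyte-like cells, with 30.2, 14.0 and 20.1 CPM, overlapped IM-like cells, with 41.7, 28.2 and 24.3 CPM. AM-like cells had 78.7, 75.8 and 64.8 CPM, above the other classes named here in each pool.

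Cd14 was highest in IM-like cells among the classes with at least 20 cells in every pool. Of the DCs, Ccr7+ DC-like cells had 8.48, 7.66 and 7.64 CPM in the asthma, tolerance and control pools, cDC1-like cells 15.7, 23.2 and 37.4 CPM and cDC2-like cells 58.7, 64.9 and 224 CPM. The 3 DC classes did not overlap. Nonclassical monocyte-like cells held 225, 228 and 171 CPM, IM-like cells 375, 458 and 1022 CPM and AM-like cells 253, 295 and 315 CPM. The IM-like value was above the other two in each pool. Neutrophil-like cells, of which 69 were found, had 2861 CPM (2550 to 3200) over the pools together. Their pools spanned 315.1 to 571.7 CPM for Tlr2 and 0 to 78.17 CPM (4 UMIs) for Tlr4, both overlapping the AM-like pools. The 47 classical monocyte-like cells had 763.7 CPM of Cd14.

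Of the endosomal receptors, Tlr3 was marked by its level in cDC1-like cells, and those 294 cells held 38.11% of its 816 UMIs. Not 1 UMI was counted in Ccr7+ DC-like cells of any pool. In cDC1-like cells Tlr3 stood at 132, 124 and 147 CPM in the asthma, tolerance and control pools, and in cDC2-like cells at 1.02, 3.93 and 7.69 CPM. IM-like cells had 4.52, 8.94 and 12.2 CPM, which overlapped cDC2-like cells, and AM-like cells 15.2, 17.3 and 7.40 CPM. Endothelial-like cells, at 39.3 ± 16.0 CPM from 11 UMIs, came second after cDC1-like cells.

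Tlr7, a receptor for single-stranded RNA, stood highest in nonclassical monocyte-like cells, the patrolling monocytes of blood vessels. B cell-like cells had 14.3, 18.6 and 22.8 CPM in the asthma, tolerance and control pools. Conventional DCs had almost none, with 1, 1 and 0 UMIs in cDC1-like and 5, 4 and 0 UMIs in cDC2-like cells. Nonclassical monocyte-like cells had 137, 130 and 136 CPM, IM-like cells 27.1, 34.7 and 20.3 CPM and AM-like cells 46.9, 64.5 and 62.2 CPM. With the lanes added, the pools of nonclassical monocyte-like cells (134 ± 3.97 CPM) lay above those of the other 8 classes, while B cell-like and IM-like pools overlapped. Their lanes differed far more than that SD, with 100.9 and 168.1 CPM in the asthma, 187.8 and 94.92 CPM in the tolerance and 51.98 and 188 CPM in the control pool. The first control lane was thus below the 59.67 CPM of AM-like cells in that lane.

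Tlr8, its neighbour on chromosome X, was instead highest in AM-like cells. B cell-like, Ccr7+ DC-like, cDC1-like and cDC2-like cells held 0 UMIs. Nonclassical monocyte-like cells had 9.30, 7.004 and 10.0 CPM in the asthma, tolerance and control pools, IM-like cells 7.54, 7.04 and 4.05 CPM and AM-like cells 16.6, 13.5 and 21.5 CPM. The AM-like value was the highest in each pool, though the monocyte-like values rest on 4, 2 and 2 UMIs. Over the pools together, the monocyte-like interval of 3.77 to 17.2 CPM overlapped the AM-like one of 16.9 to 20.3 CPM. Set on a limit of 3 UMIs per class, B cell-like cells were at least 7.843-fold, Ccr7+ DC-like cells at least 9.781-fold, cDC1-like cells at least 14.57-fold and cDC2-like cells at least 35.5-fold lower than the 18.53 CPM of AM-like cells.

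Tlr13, the receptor for bacterial ribosomal RNA, shared its leading class with Tlr7. It was also counted in all 3 DC classes, with means of 11.7 ± 3.83 CPM in Ccr7+ DC-like, 12.2 ± 4.68 CPM in cDC1-like and 10.6 ± 4.30 CPM in cDC2-like cells that differed by less than their spread. Nonclassical monocyte-like cells had 105, 73.5 and 141 CPM in the asthma, tolerance and control pools, IM-like cells 23.6, 27.9 and 44.6 CPM and AM-like cells 17.2, 26.4 and 19.7 CPM. The monocyte-like pools lay above those of the other 8 classes, and IM-like and AM-like pools overlapped. B cell-like cells had 0 UMIs, at least 43.48-fold lower than nonclassical monocyte-like cells at 102.7 CPM, and T cell-like cells also had 0, at least 14.44-fold lower. These folds rest on the same limit of 3 UMIs and leave out the counting error of the monocyte-like level. Neutrophil-like cells, outside these classes, had 40.84 to 104.2 CPM from 8 UMIs.

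Tlr11 had its highest mean in cDC1-like cells. Ccr7+ DC-like cells had 4.71, 7.66 and 22.9 CPM in the asthma, tolerance and control pools, from 5, 3 and 3 UMIs, cDC1-like cells 19.3, 12.2 and 28.6 CPM, from 21, 10 and 13 UMIs, and cDC2-like cells 3.41, 1.47 and 7.69 CPM. The cDC1-like pools lay above the cDC2-like ones and overlapped those of Ccr7+ DC-like cells. In AM-like cells 14 and 6 UMIs were found in the asthma and tolerance pools, against 0 in the control pool, where 12430078 UMIs set an upper limit of 0.2968 CPM. Tlr12, which in mice works together with TLR11, was also highest in cDC1-like cells, at 13.8, 31.8 and 15.4 CPM.

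Tlr9 was close to absent, with 31 UMIs in 31 cells. B cell-like cells held 4 of them, cDC1-like cells 2, cDC2-like cells 9, nonclassical monocyte-like cells 1, IM-like cells 9 and AM-like cells 0, for an upper limit of 0.1516 CPM in AM-like cells. Plasmacytoid DCs, the cells best known for TLR9, were represented by 4 cells with 0 Tlr9 UMIs, for which the upper limit of 238.7 CPM leaves the level unresolved at this depth. Those 4 cells did hold 4 Tlr7 UMIs, or 258.9 CPM (70.54 to 662.8). Tlr5, the flagellin receptor, had 103 UMIs, of which 85.44% were in AM-like cells.

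**Figure D1:**
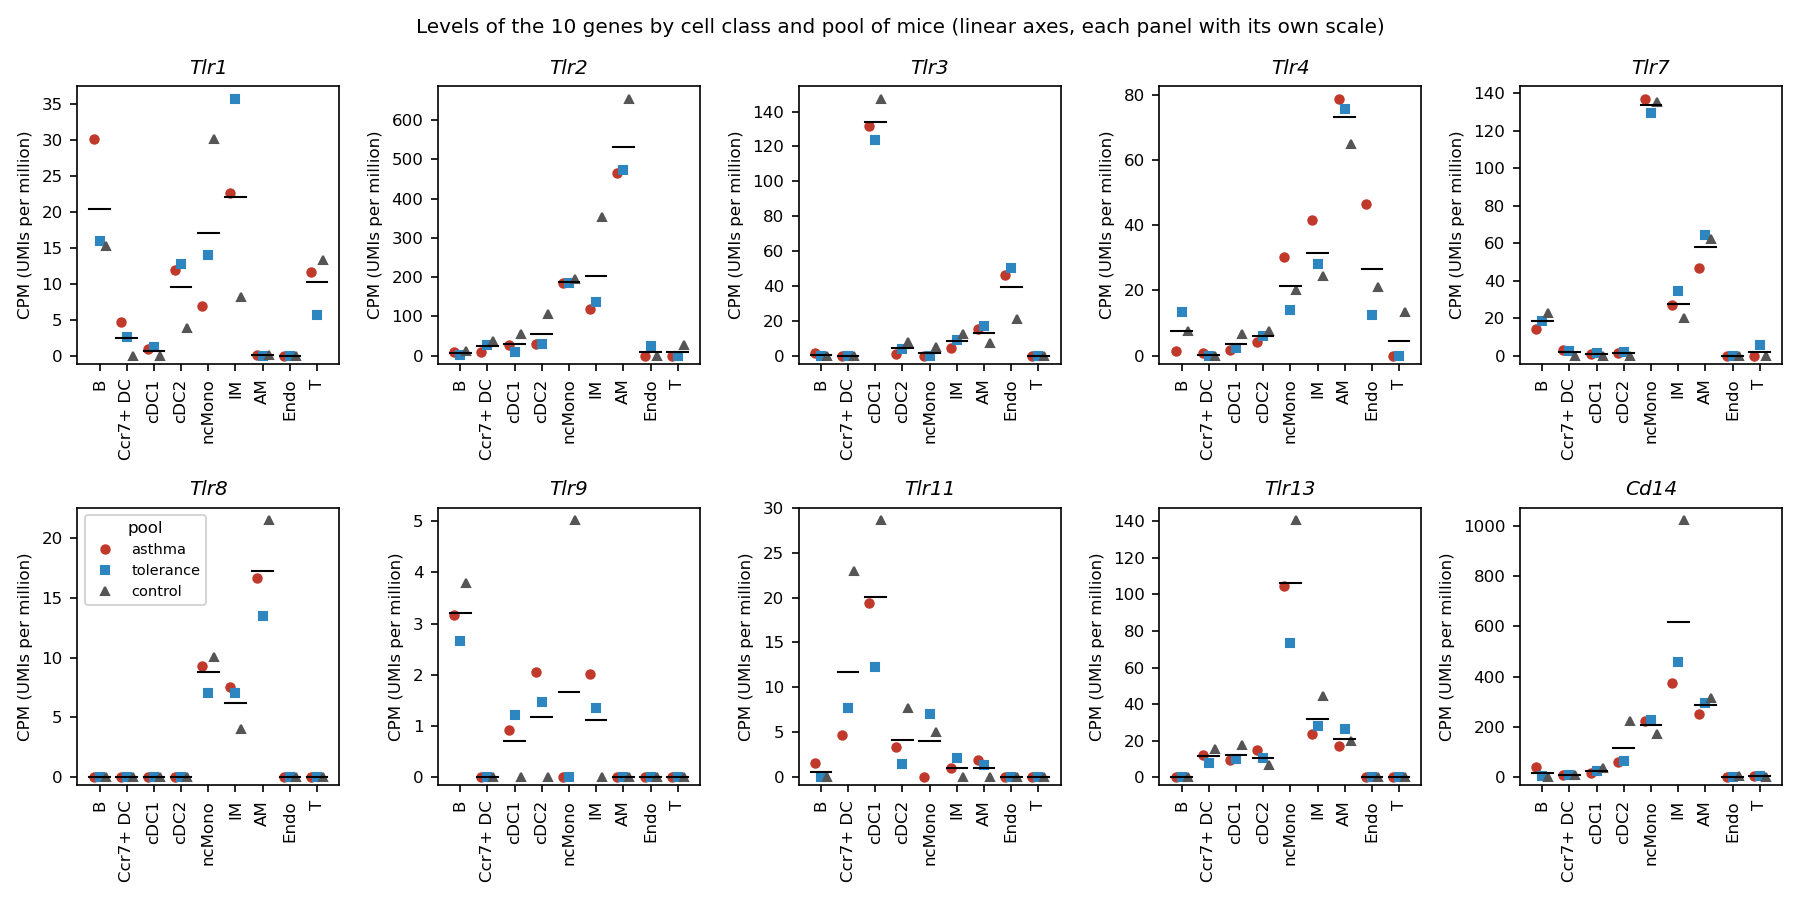
Level of each gene (y axis, CPM, linear, its own scale in each panel) by cell class (x axis; ncMono, nonclassical monocyte-like; Endo, endothelial-like). Points are the asthma, tolerance and control pools and bars the mean of the 3 pools; Tlr3 peaks in cDC1-like cells at 132, 124 and 147 CPM and Tlr7 in nonclassical monocyte-like cells at 137, 130 and 136 CPM.

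Shares of cells with at least 1 UMI depend on depth, so each cell was also thinned to 1500 UMIs. On that footing 23.6% of nonclassical monocyte-like, 16.1% of IM-like and 54.0% of AM-like cells (52.55% to 55.51%) held a Tlr2 UMI. Unthinned, the share of AM-like cells was 86.0%. For Cd14 the thinned share was 25% in nonclassical monocyte-like, 39.2% in IM-like and 30.3% in AM-like cells. Tlr3 was found in 18.1% of thinned cDC1-like cells (13.9% to 23.06%), against 54.42% unthinned, and in 1.73% of AM-like cells. Of nonclassical monocyte-like cells, 18.0% held Tlr7 and 15.8% Tlr13. The highest shares of Tlr4 (11.5%) and Tlr8 (2.75%) were those of AM-like cells, that of Tlr11 (2.74%, and 0.735% without the first lane) belonged to cDC1-like cells and that of Tlr1 (4.27%) to IM-like cells. In T cell-like cells, which served as a background for free RNA, no thinned share was above 0.719%. That value has an interval of 0.0182% to 3.94% over 139 cells, so the background is known only roughly. Median depths before thinning were 2268 UMIs for T cell-like and 5098 UMIs for AM-like cells. Cells under 1500 UMIs were left out: 134 B cell-like, 4 Ccr7+ DC-like, 2 cDC1-like, 1 cDC2-like, 38 nonclassical monocyte-like, 19 IM-like, 25 AM-like and 19 T cell-like cells. The highest thinned share of Tlr9 was 0.352%, in nonclassical monocyte-like cells, from 1 UMI. The T cell-like share of Tlr9 was 0%, with an interval up to 2.62% that includes it.

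**Figure D2:**
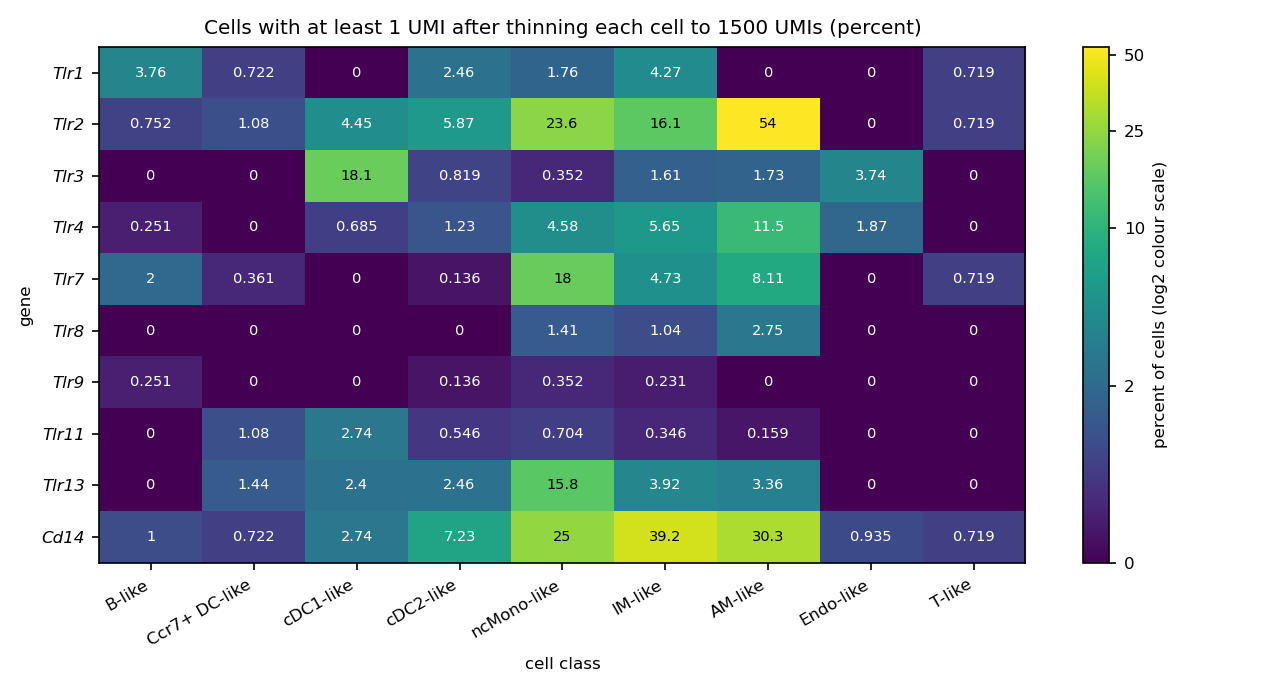
Percent of cells with at least 1 UMI after each cell was thinned to 1500 UMIs, by gene (rows) and cell class (columns), with the colour on a log2 scale and the percent written in each field. Tlr2 in AM-like cells (54.0%), Cd14 in IM-like cells (39.2%), Tlr3 in cDC1-like cells (18.1%) and Tlr7 in nonclassical monocyte-like cells (18.0%) are the highest values of their rows.

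Classes were then compared within the pools. For each pool the UMIs of a class were added up, and the quasi-likelihood test of edgeR was run over all genes that passed a filter on low counts, with the pool as a block and Benjamini-Hochberg adjustment (adjusted p under 0.05). A member can pass the filter through 1 class alone, so the counts of members called are a description beside the share of all genes called. No label gives separate cultures or animals inside a pool, so the unit is the pool, and each pool is another treatment. With 3 pools a fit left 2 residual degrees of freedom, and with the 2 pools used for interferon-high AM-like cells it left 1. The test also moderates the variance of each gene with that of the other genes. Small p-values thus rest in part on this shared variance and not on the spread over pools alone.

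IM-like against AM-like cells separated the 2 macrophage kinds. Of 8 members that passed the filter, 2 were higher and 5 lower in IM-like cells, beside 36.6% of all genes called (3767 of 10306). Tlr1 was higher by 7.52 ± 0.48 on the log2 scale (SE, adjusted p = 1.83e-06) and Cd14 by 1.01 ± 0.21 (adjusted p = 0.00412). Tlr2 fell by 1.53 ± 0.20 (adjusted p = 0.000225), Tlr4 by 1.15 ± 0.15 (adjusted p = 0.000243), Tlr7 by 0.86 ± 0.15 (adjusted p = 0.00119), Tlr8 by 1.06 ± 0.25 (adjusted p = 0.00795) and Tlr3 by 1.05 ± 0.31 (adjusted p = 0.0256). For Tlr3 the control pool ran the other way, with 12.2 CPM from 3 UMIs in IM-like against 7.40 CPM in AM-like cells. The value of Tlr13, 0.41 ± 0.21, did not pass (adjusted p = 0.155). The call of Tlr3 was lost with DESeq2 (adjusted p = 0.203), without the block (0.285), without the asthma pool (0.370), without the tolerance pool (0.183) and without the second lane (0.0897), and that of Tlr8 without the asthma pool (0.0698) or the first lane (0.0564). In a list of 48 genes of the signalling pathway, 45 were tested, 13 were higher and 8 lower, and the median log2 fold change was 0.13, against 0.00 over all genes. Of its 8 co-receptors and accessory proteins tested, 6 were higher and 1 lower, the most one-sided group of the list. Of 16 kinases and ligases 3 were higher and 2 lower, and of 8 restraining proteins 2 and 3. Adaptors had 0 higher and 1 lower of 4, transporters and scaffold 1 and 1 of 4, and transcription factors 1 and 0 of 5. Ly86 and Cd180, which encode the partners MD-1 and RP105 that modulate TLR4 and B cell responses, were higher by 3.34 (adjusted p = 1.43e-06) and 2.15 (adjusted p = 1.40e-05), as was the lysosomal nucleoside transporter Slc29a3 by 2.30 (adjusted p = 5.46e-07). Tollip, an inhibitor of IRAK signalling, fell by 0.80 (adjusted p = 0.00133), the adaptor gene Tirap by 0.72 (adjusted p = 0.0219) and Pik3ap1 by 1.16 (adjusted p = 0.0209).

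Between the conventional DC kinds, Tlr3 carried the largest difference of the members. It was higher in cDC1-like than in cDC2-like cells by 5.46 ± 0.30 on the log2 scale (adjusted p = 1.75e-08, edgeR), and Tlr11 by 2.48 ± 0.37 (adjusted p = 0.000219). Cd14 fell by 1.94 ± 0.21 (adjusted p = 1.17e-05), and the value of Tlr2, -0.70 ± 0.26, did not pass (adjusted p = 0.0826). This made 3 of 4 members called, beside 20.5% of all genes (1510 of 7374). The call of Cd14 was lost without the block (adjusted p = 0.0601), and Tlr2 passed without the asthma pool (adjusted p = 0.0457), without the filter, without doublet removal and with clusters in place of gates. Tlr12 was higher by 4.25 ± 0.47 (adjusted p = 1.21e-05). Of 40 pathway genes tested, 8 were higher and 7 lower in cDC1-like cells (median log2 fold change -0.01, against 0.00 over all genes). Cd36, a scavenger receptor that assists TLR2 with TLR6, was higher by 3.75 (adjusted p = 4.2e-09), the kinase adaptor gene Pik3ap1 by 1.68 (adjusted p = 0.00519) and the ubiquitin ligase gene Peli1 by 1.42 (adjusted p = 1.88e-05). The endolysosomal transporter gene Slc15a3 fell by 1.26 (adjusted p = 6.11e-05), Nfkb1 by 1.14 (adjusted p = 1.07e-05) and Nrros, which encodes a partner that restrains Toll-like receptors, by 0.88 (adjusted p = 0.000214).

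Ccr7+ DC-like cells, the mature DCs, were set against both conventional kinds. Against cDC1-like cells 1 of 3 members that passed the filter was called, beside 45.9% of all genes (2734 of 5953). This was Tlr3, with 0 of 1583473 UMIs in Ccr7+ DC-like cells against 311 UMIs in cDC1-like cells (adjusted p = 3.88e-08, edgeR). Set on the limit of 3 UMIs, Tlr3 was at least 69.59-fold lower than the cDC1-like level taken without its counting error. The exact upper limit for 0 UMIs was 2.33 CPM, and the cDC1-like interval began at 117.6 CPM. With cells assigned by clustering in place of gates, the fitted difference of Tlr3 was -3.08 on the log2 scale, so the count of 0 belongs to the gated cells. Tlr11, at -1.07 ± 0.54 (adjusted p = 0.117), and Tlr2, at -0.25 ± 0.50 (adjusted p = 0.712), did not pass. Tlr11 passed with clusters (adjusted p = 0.0432), and the value of Tlr2 turned to 0.70 without the asthma pool.

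Against cDC2-like cells, 2 of 3 members were called in Ccr7+ DC-like cells, both lower, beside 47.3% of all genes (3433 of 7255). Cd14 fell by 2.93 ± 0.33 (adjusted p = 2.00e-07, edgeR) and Tlr2 by 0.88 ± 0.35 (adjusted p = 0.0406), while Tlr13, at 0.10 ± 0.45, did not pass (adjusted p = 0.874). The call of Tlr2 was lost under 6 of the alternatives, with adjusted p of 0.0549 to 0.759. They include the fits without the asthma pool (0.483), without the control pool (0.0862) and without the first lane (0.759). The pathway list had 12 higher and 7 lower of 36 against cDC1-like cells (median 0.21, against -0.01 over all genes) and 12 higher and 11 lower of 39 against cDC2-like cells (median 0.23, against -0.03). Since both comparisons share the Ccr7+ DC-like sums, each value is given on its own. Ly96, which encodes the TLR4 partner MD-2, was higher by 2.92 (adjusted p = 1.47e-05) against cDC1-like and by 3.26 (adjusted p = 1.18e-07) against cDC2-like cells, in cells that held 1 Tlr4 UMI. Cd180 fell by 3.94 (adjusted p = 4.49e-06) and 2.75 (adjusted p = 0.000156) in the same order, and Hsp90b1, the chaperone of most Toll-like receptors, by 1.64 (adjusted p = 5.12e-06) and 1.74 (adjusted p = 1.63e-07). The ligase gene Traf6 was higher by 2.05 (adjusted p = 5.99e-05) and Nfkb1 by 1.85 (adjusted p = 2.19e-06) against cDC1-like cells, whereas Cd36 fell by 1.43 (adjusted p = 3.56e-05). Cd36 was higher by 2.33 (adjusted p = 8.55e-07) and Peli1 by 2.25 (adjusted p = 7.00e-10) against cDC2-like cells, and 5430427O19Rik, a gene of the endosomal scaffold list, fell by 1.62 (adjusted p = 0.00693).

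In cDC2-like against IM-like cells, all 7 members that passed the filter were lower, beside 33.8% of all genes called in either direction (3107 of 9201). Tlr7 fell by 4.15 ± 0.36 on the log2 scale (adjusted p = 3.74e-07, edgeR), Tlr4 by 2.67 ± 0.30 (adjusted p = 5.84e-06), Cd14 by 2.55 ± 0.15 (adjusted p = 8.27e-09) and Tlr2 by 1.98 ± 0.14 (adjusted p = 5.90e-08). Smaller values were those of Tlr3, which fell by 1.28 ± 0.45 (adjusted p = 0.0404), Tlr1 by 1.21 ± 0.24 (adjusted p = 0.00120) and Tlr13 by 1.20 ± 0.28 (adjusted p = 0.00379). With clusters in place of gates Tlr7 fell by 2.57. The call of Tlr3 was lost under 6 alternatives (adjusted p of 0.0762 to 0.283), among them the fits without the asthma pool (0.283) and without the tolerance pool (0.225), that of Tlr1 with DESeq2 (0.0785) and without the tolerance pool (0.203), and that of Tlr2 without the block (0.0503). Pathway genes moved in both directions, 9 higher and 9 lower of 45 (median log2 fold change -0.03, against -0.01 over all genes). The inhibitory receptor gene Sigirr was higher by 3.07 (adjusted p = 1.93e-05), the kinase gene Ikbkb by 1.08 (adjusted p = 9.34e-06) and the deubiquitinase gene Cyld by 1.04 (adjusted p = 4.88e-05). Cd36 fell by 3.72 (adjusted p = 2.27e-09), Ly96 fell by 2.65 (adjusted p = 1.86e-06) and Irak3, which encodes the inhibitory IRAK-M, by 2.37 (adjusted p = 0.000187).

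Nonclassical monocyte-like against IM-like cells gave 3 of 5 members called, beside 40.4% of all genes (2030 of 5019). Tlr7 was higher by 2.14 ± 0.22 (adjusted p = 3.34e-06, edgeR) and Tlr13 by 1.73 ± 0.25 (adjusted p = 6.52e-05), and Cd14 fell by 1.40 ± 0.28 (adjusted p = 0.00106). Tlr2, at 0.11 ± 0.25 (adjusted p = 0.765), and Tlr4, at -0.62 ± 0.34 (adjusted p = 0.171), did not pass. The value of Tlr2 moved with the pools left out, to 0.57 without the control pool (adjusted p = 0.00892), to -0.26 without the asthma pool and to -0.10 without the tolerance pool. Of 35 pathway genes, 16 were higher and 4 lower (median 0.59, against -0.01 over all genes). Higher were 5430427O19Rik by 2.19 (adjusted p = 1.15e-05), Ikbkb by 2.10 (adjusted p = 3.86e-07) and Cd180 by 1.87 (adjusted p = 2.67e-05), and Slc29a3 fell by 3.77 (adjusted p = 1.10e-06), Ly86 by 1.45 (adjusted p = 2.90e-05) and Hsp90b1 by 1.38 (adjusted p = 6.97e-06).

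B cell-like against cDC2-like cells set lymphoid against myeloid antigen-presenting cells, and all 4 members that passed the filter were called, beside 49.5% of all genes (3417 of 6909). Tlr7 was higher by 3.45 ± 0.64 (adjusted p = 0.000350, edgeR) and Tlr1 by 1.14 ± 0.38 (adjusted p = 0.0228), whereas Tlr2 fell by 2.49 ± 0.39 (adjusted p = 8.47e-05) and Cd14 by 2.12 ± 0.52 (adjusted p = 0.00320). The Tlr7 difference was 1.92 with clusters in place of gates. Cd14 had 25, 2 and 0 UMIs in the B cell-like cells of the asthma, tolerance and control pools. Its value was -5.30 without the asthma pool, -1.11 without the control pool and -1.02 with a floor of 1200 genes, and it lost its call with DESeq2 (adjusted p = 0.0889), with that floor (0.275) and without the second lane (0.0795). Tlr1 was not called with DESeq2 (0.196). Of 14 fits, the main one included, Tlr1 was tested in 9, Tlr7 in 10 and Tlr2 in 12. Of 38 pathway genes 12 were higher and 12 lower (median 0.14, against -0.03 over all genes). Irak3 was higher by 3.28 (adjusted p = 5.89e-05), Cd180, first known as a B cell protein, by 2.08 (adjusted p = 8.04e-07) and Peli1 by 1.56 (adjusted p = 1.09e-05). Slc15a3 fell by 2.67 (adjusted p = 1.45e-05), the common adaptor gene Myd88 by 2.14 (adjusted p = 8.00e-06) and Slc29a3 by 2.08 (adjusted p = 0.000589).

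**Figure D3:**
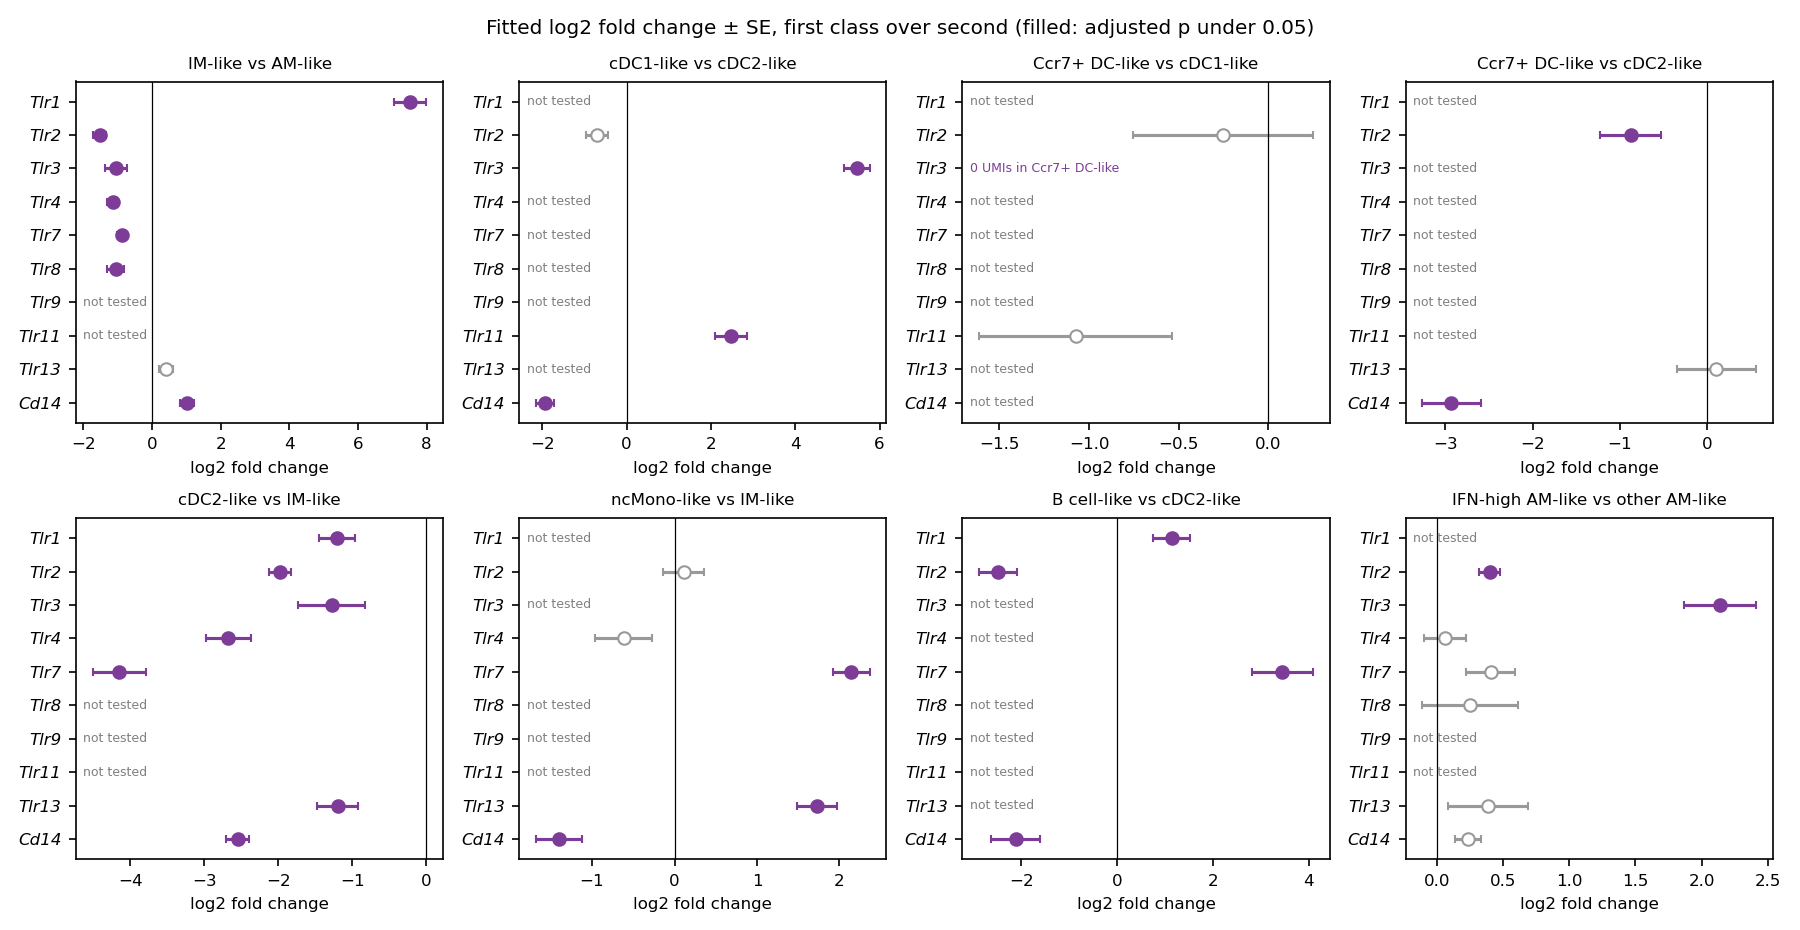
Fitted log2 fold change ± SE (x axis, first class over second) of each member (rows) in the 8 comparisons, one panel each, with filled points at an adjusted p under 0.05 (edgeR). Members that did not pass the low-count filter are written as not tested, and the Tlr3 field of Ccr7+ DC-like against cDC1-like cells gives its count of 0 UMIs; Tlr1 in IM-like over AM-like cells is at 7.52 and Tlr3 in cDC1-like over cDC2-like cells at 5.46.

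Some AM-like cells carried interferon-induced transcripts. Cells with a UMI of at least 4 of the genes Ifit1, Ifit2, Ifit3, Rsad2, Isg15, Cxcl10, Oasl1 and Mx1 are called interferon-high, and of 212 such AM-like cells 111 came from the asthma, 98 from the tolerance and 3 from the control pool. Tlr3 stood at 40.6 CPM in the interferon-high cells of the asthma pool (26.8 to 59.1, 27 UMIs) against 12.6 CPM in its other AM-like cells (85 UMIs). The tolerance pool gave 54.2 CPM (40 UMIs) in interferon-high and 10.1 CPM (38 UMIs) in other AM-like cells. In both pools the Poisson intervals of the 2 states did not overlap. The control pool had 0 Tlr3 UMIs in its 3 interferon-high cells, which is too few to read. Tlr3 was detected in 16.22% of interferon-high and 5.94% of other AM-like cells of the asthma pool (median depths of 5656 and 4709 UMIs). In the tolerance pool the shares were 27.55% and 5.939% (7369 and 5729 UMIs).

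The test across the asthma and tolerance pools called 2 of 7 members, both higher in interferon-high cells, beside 7.22% of all genes (668 of 9248). Tlr3 was higher by 2.14 ± 0.27 on the log2 scale (adjusted p = 6.19e-07, edgeR) and Tlr2 by 0.40 ± 0.08 (adjusted p = 0.000843). Tlr2 read 585 CPM in interferon-high against 453.5 CPM in other cells of the asthma pool, and 540.5 against 460.2 CPM in the tolerance pool. Its call was lost with DESeq2 (adjusted p = 0.152). Tlr7, at 0.41 ± 0.19, gave 42.1 against 47.4 CPM in the asthma pool and 90.8 against 59.3 CPM in the tolerance pool and did not pass (adjusted p = 0.253). Nor did Cd14 (0.24 ± 0.10, adjusted p = 0.179), Tlr13 (0.39 ± 0.30, adjusted p = 0.588), Tlr8 (0.25 ± 0.36, adjusted p = 0.816) or Tlr4 (0.06 ± 0.16, adjusted p = 0.906). Of 45 pathway genes tested, 9 were higher and 0 lower (median 0.18, against -0.01 over all genes), and Irf7, the interferon-regulated transcription factor downstream of TLR7 and TLR9, was higher by 2.88 (adjusted p = 7.75e-19), Ikbke by 1.67 (adjusted p = 0.0105) and Cd180 by 1.44 (adjusted p = 0.0118).

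**Figure D4:**
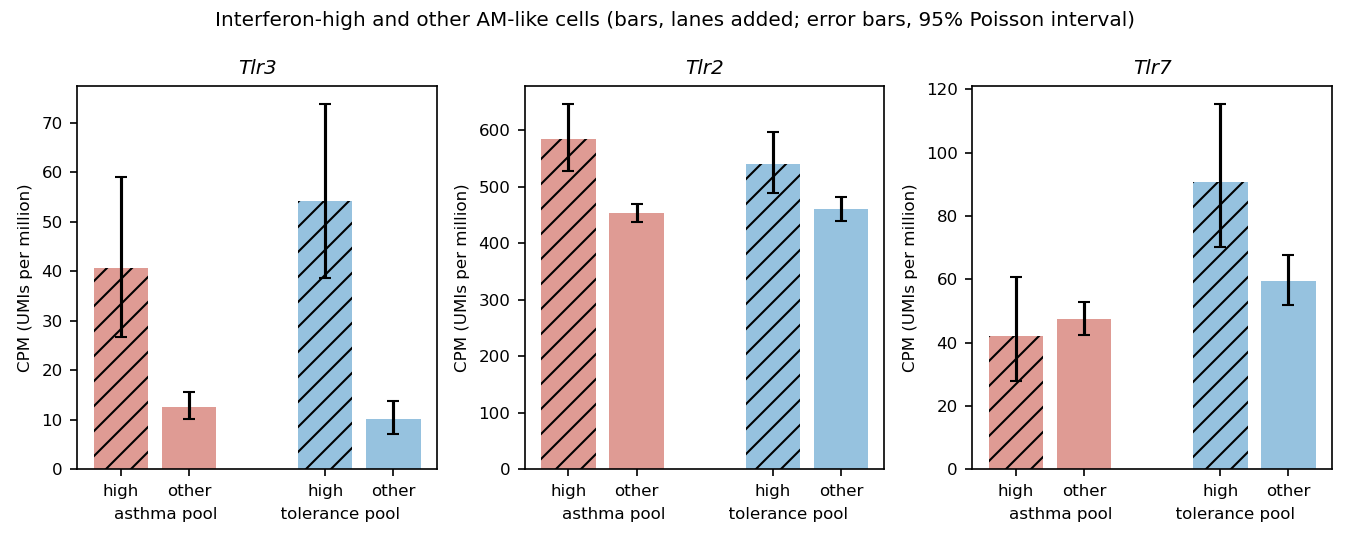
Level (y axis, CPM) of Tlr3, Tlr2 and Tlr7 in interferon-high (hatched) and other AM-like cells of the asthma and tolerance pools, with the lanes added and 95% Poisson intervals as error bars. Tlr3 is at 40.6 against 12.6 CPM in the asthma pool and at 54.2 against 10.1 CPM in the tolerance pool, and Tlr7 differs in direction between the pools.

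The same state in other classes was described without a test. In IM-like cells Tlr3 stood at 20.9 CPM (12.4 to 33.0) in 111 interferon-high cells against 5.33 CPM (3.51 to 7.75) in 775 others, but its 18 UMIs all came from the tolerance pool, and the 26 interferon-high cells of the asthma pool held 0. In cDC1-like cells the intervals of Tlr3 overlapped, at 98.1 CPM (62.2 to 147) in 25 interferon-high and 136 CPM (120 to 152) in 269 other cells. Tlr1 in IM-like cells of the asthma pool read 28.0 CPM (9.09 to 65.3, 5 UMIs) in interferon-high and 22.1 CPM (15.8 to 30.1) in other cells. In the tolerance pool, which held 84 of the 111 interferon-high IM-like cells, it read 54.7 CPM (38.49 to 75.3) and 31.5 CPM (25.5 to 38.5). In cDC2-like cells Tlr1 read 16.1 CPM (3 UMIs) in interferon-high and 11.7 CPM in other cells of the asthma pool. In the tolerance pool the values were 49.8 CPM (20 to 102.5, 7 UMIs) and 10.0 CPM (6.04 to 15.7), and these rest on few UMIs. Cycling cDC1-like cells, of which there were 43, had 158.9 CPM of Tlr3 (125.6 to 198.3), against 124.7 CPM (109.2 to 141.8) in those not cycling, with overlapping intervals.

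Cd14 also varied inside the cDC2-like class. The 215 cDC2-like cells with UMIs of both Trf and Clec4b1 had 171 CPM (151.7 to 192.3), the 315 with Cd209d or Cd209e 60.6 CPM (51.5 to 70.8) and the 225 with at least 2 of Klrd1, Ifitm6 and Cd7 41.1 CPM (32.2 to 51.6). Cells can belong to more than 1 of these sets. The order of the first and the other sets held in each pool, where cells with Trf and Clec4b1 had 138.3, 133.3 and 252 CPM in the asthma, tolerance and control pools, those with Cd209d or Cd209e 53.3, 58.4 and 168 CPM and those with the third set 29.3, 43.0 and 119 CPM. Control values of the last 2 sets rest on 22 and 18 cells.

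Likeness was measured as Pearson's r of log2(CPM + 1) over 30 class-by-pool units, among genes with at least 50 UMIs, and is a description, since units of a pool share lanes and units of a class share cells of a kind. Tlr13 was most like Tyrobp (0.948), Gpr35 (0.931) and Fcer1g (0.925), and Tyrobp was also among the 3 nearest genes of Tlr2 (0.881), with Nfam1 (0.908) and Lyz2 (0.866). Cd14 was nearest to Fcgr3 (0.951), Igsf6 (0.926) and Pgd (0.926), and Tlr8 to Pparg (0.897), Lilra5 (0.893) and Agmo (0.885). For Tlr11 the nearest genes were Lpar3 (0.868), Clec9a (0.862), which is itself a marker of the cDC1-like gate, and Cst3 (0.814), and for Tlr3 they were Fgd6 (0.824), Pdia5 (0.822) and Rnf144b (0.807). Tlr7 lay closest to Slc16a7 (0.86), Cybb (0.849) and Tnfsf13os (0.84), Tlr4 to Susd6 (0.837), Plaur (0.831) and Sdcbp (0.826), and Tlr1 to Rasgrp1 (0.854), Ms4a4c (0.842) and Ms4a6b (0.804). Tlr9 had too few UMIs. Among the members themselves, Cd14 with Tlr13 (0.838) and Tlr13 with Tlr2 (0.822) were highest, and Tlr11 with Tlr4 (-0.442) and Tlr3 with Tlr1 (-0.404) were lowest.

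Treatments were compared as values only, since each is 1 pool of mice. A gene was called when it differed at least 2-fold in the same direction in both lanes and had at least 20 UMIs in the pools compared. Ratios are given on the log2 scale. Of the 7 members that passed in AM-like cells, 0 were called in asthma against control, and Tlr3 was called in tolerance against control at 1.23 (1.24 and 1.22 in the lanes), beside 3.01% of all genes called higher. The asthma ratio of Tlr3 to control was 1.03, with 0.81 in the second lane. Interferon-high cells made up 98 of 721 AM-like cells in the tolerance pool against 3 of 2266 in the control pool, and held 40 of the 78 Tlr3 UMIs of the tolerance pool. In the other AM-like cells Tlr3 was at 10.1 CPM in the tolerance against 7.415 CPM in the control pool, a difference under 2-fold. The part of the interferon-high share in the Tlr3 ratio was not tested. Tlr2 in AM-like cells was at -0.49 in asthma and -0.47 in tolerance against control. Nonclassical monocyte-like cells had 0 members called of 4 in each contrast.

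In IM-like cells Tlr2 and Cd14 were lower in both OVA-treated pools. Tlr2 had 133.8 and 107 CPM in the lanes of the asthma pool and 134.6 and 137 CPM in those of the tolerance pool, against 323.5 and 385 CPM in those of the control pool. Cd14 had 452.6 and 305.8 CPM in the asthma and 425.7 and 485.2 CPM in the tolerance lanes, against 1017 and 1027 CPM in the control lanes. The lanes of the OVA-treated pools lay below the control lanes throughout. The ratios were -1.57 for Tlr2 and -1.45 for Cd14 in asthma against control (beside 5.29% of all genes called lower; 6 members passed) and -1.39 and -1.16 in tolerance against control (beside 7.31%; 8 passed). The control pool had 50 IM-like cells.

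The same genes were called in cDC2-like cells. Tlr2 had 26.6 and 31.33 CPM in the asthma and 37.72 and 23.9 CPM in the tolerance lanes, against 124.9 and 94.63 CPM in the control lanes. For Cd14 the values were 50.79 and 64.43 CPM in the asthma and 81.53 and 53.56 CPM in the tolerance lanes, against 299.1 and 176.6 CPM in the control lanes. The ratios were -1.86 and -1.94 in asthma against control (beside 3.68% of all genes called lower; 4 members passed) and -1.85 and -1.79 in tolerance against control (beside 2.85%). The subsets of cDC2-like cells described above took different shares of each pool, and cells with Trf and Clec4b1 were 85 of 369 in the asthma, 51 of 237 in the tolerance and 79 of 128 in the control pool. Among them Cd14 was at 138.3 and 133.3 CPM in the asthma and tolerance pools against 252 CPM in the control pool, which is under 2-fold. Tlr2 in the same cells was at 36.9 and 30.3 CPM against 112.9 CPM. In each of the other sets described above, Cd14 of both OVA-treated pools was more than 2-fold below that of the few control cells. The part of the subset shares in these ratios was not tested. In cDC1-like cells Cd14 was called in asthma against control at -1.26 (beside 1.29%), and Tlr2 in tolerance at -2.55 against control (beside 1.37%) and at -1.50 against asthma (beside 0.437%), from 7 UMIs in the tolerance, 29 in the asthma and 25 in the control pool. With clusters in place of gates the last of these ratios was -0.94 and was not called.

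**Figure D5:**
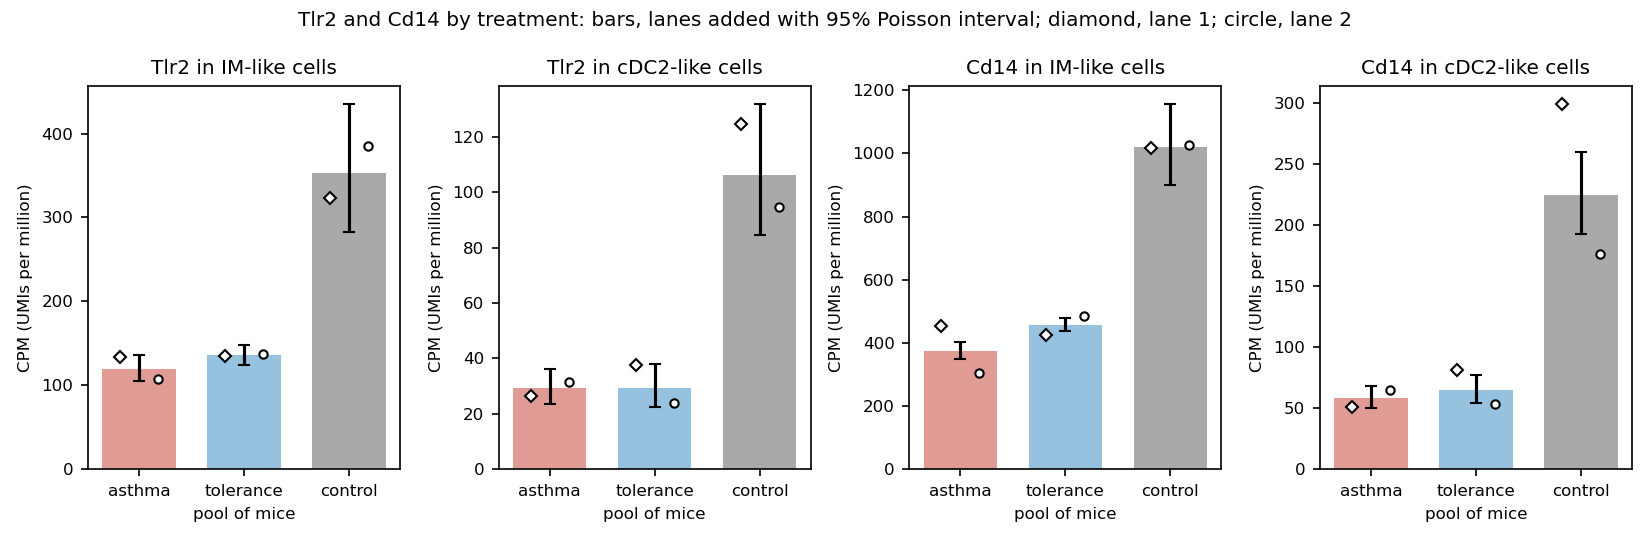
Level (y axis, CPM) of Tlr2 and Cd14 in IM-like and cDC2-like cells of the asthma, tolerance and control pools. Bars are the lanes added with a 95% Poisson interval, diamonds lane 1 and circles lane 2, and in each panel the lanes of the asthma and tolerance pools lie below both control lanes, for Cd14 in IM-like cells at 305.8 to 485.2 CPM against 1017 and 1027 CPM.

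Other transcripts also differed between the pools, though not in every class. The summed level of 8 immediate-early genes, which cells switch on within minutes of stress such as tissue digestion, was 6048, 5686 and 13580 CPM in the IM-like cells of the asthma, tolerance and control pools, 5097, 5477 and 9503 CPM in cDC2-like and 6620, 5795 and 11210 CPM in cDC1-like cells. In nonclassical monocyte-like cells, where 0 members were called, it was 7156, 7410 and 6984 CPM. Ccr7+ DC-like cells, with Tlr2 at 8.48, 28.1 and 38.2 CPM, had 2953, 3201 and 3223 CPM of these genes. AM-like cells, with 0 members called in asthma against control, had 5183, 4553 and 6578 CPM, and B cell-like cells 2977, 3275 and 3374 CPM. Markers of classical monocytes in IM-like cells summed to 2052, 1660 and 1066 CPM, and markers of interstitial macrophages in cDC2-like cells to 60.7, 78.1 and 227 CPM. The 8 AM markers reached 0.253%, 0.224% and 0.994% of the AM-like level in cDC2-like cells, and those other than Chil3 0.489%, 0.588% and 0.710%, while Tlr2 there reached 6.30%, 6.23% and 16.3% of its AM-like level. The part of these transcripts in the differences of Tlr2 and Cd14 was not tested.

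The remaining calls rest on few UMIs. Tlr2 in Ccr7+ DC-like cells was called in tolerance against asthma at 1.70, from 11 against 9 UMIs (beside 0.546% of all genes called higher; 1 member passed), and was at 0.83 with clusters in place of gates. Cd14 in B cell-like cells was called in asthma against control at 3.44 (25 against 0 UMIs, beside 0.597%) and in tolerance against asthma at -2.37 (2 against 25 UMIs, beside 0.508%). Those 25 UMIs came from 6 cells, with 10 in 1 cell, and the asthma ratio was 0.58 when no doublets were removed.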

How the data were processed

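Per the labels and the study's methods, the authors sorted lung DCs and macrophages, tagged them by treatment and aligned 3′ reads with Cell Ranger 3.1.0 and STAR to mm10, and Seurat 3.1.5 assigned barcodes to treatments. The deposited values are UMI counts per gene and barcode, used unscaled, in 6 matrices (3 pools by 2 lanes) with 31053 gene and 4 antibody rows. Since lanes repeat the same pools, the unit of every test was 1 pool of 8 mice.

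Of 10901 barcodes, 10088 were left after those above 20% mitochondrial UMIs (661), those above 20000 UMIs (22) and those below 500 genes (619) were dropped. The gene floor printed in the methods is reached by 0 barcodes (the highest number is 5465), so 500 was used. Scrublet (scanpy 1.11.5, Python 3.11.15) called 0.0585% of lane 1 and 0.4837% of lane 2, below the 0.5% taken as a working call, so the top 2% of scores were removed (110 and 115 cells). Genes in at least 5 cells (15387) were kept.

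Classes were gated by marker genes. The number of markers per gate was set after the marker distributions, though not the values of the members, were seen. The members and lists were chosen with earlier results of these data known. UMIs summed per pool and class (classes with at least 20 cells in the pool) were tested with edgeR 4.0.16 in R 4.3.3 (quasi-likelihood, TMM, filterByExpr, pool as a block because the classes of a pool come from the same mice, Benjamini-Hochberg over all genes, 0.05), a procedure tested on simulated data. The study tested gene expression between sub-clusters over cells (Wilcoxon test), which are not replicates, and flow cytometry frequencies over animals (Mann-Whitney test). Treatments, with 1 pool each, had no test. Their ratios added 1 UMI and needed 20 UMIs and 2-fold in both lanes. Intervals are exact at 95%. The SE of an edgeR value is its absolute log2 fold change over the square root of its F statistic, not a separately fitted error. Named were all 10 members, Tlr5, Tlr6, Tlr12, the pathway genes with up to 3 largest calls each way that held in every pool, and the 3 genes most like each member.

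Alternatives changed the size factors, the filter, the test (DESeq2 1.42.0), the block, the pools and lanes, the gene floor (1200), doublets, the gates (Leiden clusters, 1 more marker), the thinning depth (1000) and the fold, pseudocount and minimum for treatments. Gene positions were matched by identifier to GENCODE (30934 rows), and promoters came from RefSeq.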

Additional observations from a re-analysis of the deposited data

Results flagged for a closer look

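The 1563 cells that reached no class enter no comparison, yet they held UMIs of every member, above what a count of 0 allows (median depth 4267 UMIs). Their share was largest for Tlr1, with 21.8% of its UMIs (12.2 CPM, 9.81 to 14.9), and for Tlr9, with 16.1% (5 UMIs). For Cd14 it was 12.8% (226.7 CPM) and for Tlr2 9.27% (208.5 CPM). The other members had 11.5% for Tlr13, 11.3% for Tlr3, 10.7% for Tlr11, 10.2% for Tlr4, 8.77% for Tlr8 and 8.6% for Tlr7. The class of these cells is not known, so no level above includes them. They were 20.45% of the asthma, 21.04% of the tolerance and 6.04% of the control pool. Ratios between treatments thus leave out a larger share of the OVA-treated pools. A further 315 cells reached the gates of several classes and were also left out of the gated classes (median depth 8098 UMIs). They held 7.78% of the UMIs of Tlr13, 6.74% of Tlr3 (20.6 CPM), 6.57% of Tlr1 and 0% of Tlr9. For the other members the share ran from 2.23% (Tlr4) to 6.11% (Tlr11).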

How the results depend on the processing

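Of the members' values in the class comparisons under the alternatives, 437 kept their direction and side of the threshold, 28 lost the call, 6 gained one and 11 turned direction, of which none had been called. A member that did not pass the filter under an alternative has no value there and is not counted. Of 14 fits, the main one included, Tlr11 in cDC1-like against cDC2-like and Tlr3 in cDC2-like against IM-like cells were tested in 11. Of the values of members called between treatments, 62 kept their call under the alternatives and 13 lost it. Members without a call between treatments are not part of this count. With the pool block left out ("no replicate block", where a pool pairs its classes), genes called were 804 for cDC1-like against cDC2-like, 1897 for cDC2-like against IM-like and 433 for interferon-high against other AM-like cells. DESeq2 called 726 genes for cDC1-like against cDC2-like, 1645 for Ccr7+ DC-like against cDC1-like, 2145 against cDC2-like, 1559 for cDC2-like against IM-like, 1219 for nonclassical monocyte-like against IM-like, 2110 for B cell-like against cDC2-like and 255 for interferon-high AM-like cells. A floor of 1200 genes gave 1889 for B cell-like against cDC2-like cells. Leaving out a pool or lane gave 2232 to 4850 genes for IM-like against AM-like, 736 to 1740 for cDC1-like against cDC2-like, 1720 to 3133 for Ccr7+ DC-like against cDC1-like, 1930 to 4238 against cDC2-like, 1591 to 4160 for cDC2-like against IM-like, 1162 to 2928 for nonclassical monocyte-like against IM-like, 1907 to 4163 for B cell-like against cDC2-like and, by lane, 464 to 505 for interferon-high AM-like cells, for which no fit without a pool was run because 2 pools had enough cells.

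Of the values of other Tlr genes in the class comparisons, 38 stayed and 1 turned direction. The values that turned, with their range, were Tlr6 in IM-like against AM-like cells (-0.093 without the asthma pool, 0.75 without the tolerance pool), Tlr2 in Ccr7+ DC-like against cDC1-like cells (0.70 without the asthma pool, 0.33 without the first lane, -1.07 without the tolerance pool), Tlr13 in Ccr7+ DC-like against cDC2-like cells (-0.02 without the control pool, -0.25 without the second lane, -0.0083 at 1200 genes, 0.17 without the tolerance pool, 0.53 with clusters), Tlr2 in nonclassical monocyte-like against IM-like cells (-0.26, -0.10 and -0.02 without the asthma pool, the tolerance pool and the first lane, -0.14 at 1200 genes, 0.57 without the control pool) and Tlr4 in interferon-high AM-like cells (-0.083 without the second lane, -0.0032 with clusters, 0.18 without the first lane). The cause was not tested.

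Between treatments, 6 member calls for asthma against control became 10 with the lanes added, 6 for tolerance against control became 10 at 1.5-fold and 3 for tolerance against asthma became 0 at a minimum of 50 UMIs. Thinned to 1000 UMIs, shares fell with depth to 39.8% (Tlr2, AM-like), 30.4% (Cd14, IM-like), 11.2% (Tlr3, cDC1-like), 12.4% and 9.84% (Tlr7 and Tlr13, nonclassical monocyte-like), 6.80% and 1.76% (Tlr4 and Tlr8, AM-like) and 0% (Tlr9, nonclassical monocyte-like). With 1 lane left out they were 52.3% to 55.7% for Tlr2 in AM-like, 0.735% to 4.49% for Tlr11 in cDC1-like and 0% to 0.641% for Tlr9 in nonclassical monocyte-like cells. Limits are set by 1 pool per treatment, by 30 Ccr7+ DC-like and 50 IM-like cells in the control pool and by few UMIs of Tlr9 and Tlr11.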
